A study of Mus musculus with 15 samples.

Results

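The genes described here run glycolysis, carry lactate across the cell membrane and respond to low oxygen. The set holds 39 named mouse genes: 2 glucose transporters, 18 glycolytic enzymes and regulators, 3 genes of pyruvate fate and lactate transport, 4 HIF subunits and prolyl hydroxylases, and 12 hypoxia targets. They were listed by function, with earlier results of these data known. A gene was read through a probe set annotated with its symbol alone, and where several existed through the one with the highest mean log2 intensity over the 15 arrays. This gave 36 of the 39 genes, among 18194 genes tested. Gpi1, Eno1 and Bnip3l had no such probe set and have no value here. Gapdh was read by 3 control probe sets of the array alone.

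Lungs were profiled on Affymetrix arrays, single-colour arrays on which each probe set reports 1 intensity per gene region, with 3 arrays per group. The 4 groups were wild type lung at 12 months, lung tumours at 12 months, wild type lung at 7 months and mutant lung at 7 months. Tumours and mutant lungs came from mice whose genotype includes Smad4d/d, a deletion of a signal carrier of the TGF-beta and BMP pathways, together with a further deletion that is not reported here. No effect can therefore be assigned to Smad4 by itself. Each tumour array is described as part of 1 single tumour, and each lung array as part of a whole lung. All mice were of mixed background on normal feed, without treatment. The labels do not say which cells carry the deletions or whether lungs were pooled. The design asked at 12 months how gene activity in tumours departs from wild type lung, and at 7 months which genes had changed before tumours began.

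Glycolysis splits glucose into pyruvate, and lactate dehydrogenase turns pyruvate into lactate, which leaves the cell through monocarboxylate transporters. When oxygen is plentiful, the EGLN prolyl hydroxylases mark the alpha subunits of HIF for breakdown by VHL. When it is scarce, HIF builds up, binds ACGTG or GCGTG motifs and raises genes of glucose uptake, glycolysis and blood vessel growth. Lung is exposed to air, makes much of the HIF subunit Epas1 in its endothelium, and makes Vegfa in its alveolar epithelium.

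RefSeq promoters of GRCm38.p6 were matched for 35 of the 39 genes. The 4 windows below are shown because they belong to genes that rose in the tumours and hold the ACGTG motif. Each runs 5′ to 3′ along the gene's own strand over the 250 bases before the start of transcription, and capitals mark ACGTG on either strand. The palindrome CACGTG counts on both strands. Ldha lies at chr7:46845554-46845803 on the plus strand, Pgk1 at chrX:106186850-106187099 on the plus strand, Slc2a1 at chr4:119108495-119108744 on the plus strand and Egln3 at chr12:54203875-54204124 on the minus strand.
Ldha: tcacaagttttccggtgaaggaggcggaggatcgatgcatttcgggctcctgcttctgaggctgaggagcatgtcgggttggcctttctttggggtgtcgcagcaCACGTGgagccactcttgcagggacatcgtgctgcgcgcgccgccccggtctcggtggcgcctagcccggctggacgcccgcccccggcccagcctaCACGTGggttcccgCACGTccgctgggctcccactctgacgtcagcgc
Pgk1: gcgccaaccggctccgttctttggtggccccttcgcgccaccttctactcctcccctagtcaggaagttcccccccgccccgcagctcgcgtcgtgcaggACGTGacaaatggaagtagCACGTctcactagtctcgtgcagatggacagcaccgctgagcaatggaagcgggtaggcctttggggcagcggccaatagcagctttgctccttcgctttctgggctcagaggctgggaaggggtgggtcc
Slc2a1: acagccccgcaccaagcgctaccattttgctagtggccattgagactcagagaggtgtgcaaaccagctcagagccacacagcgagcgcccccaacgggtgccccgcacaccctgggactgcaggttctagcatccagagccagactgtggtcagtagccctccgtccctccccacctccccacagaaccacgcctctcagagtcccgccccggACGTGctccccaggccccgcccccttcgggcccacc
Egln3: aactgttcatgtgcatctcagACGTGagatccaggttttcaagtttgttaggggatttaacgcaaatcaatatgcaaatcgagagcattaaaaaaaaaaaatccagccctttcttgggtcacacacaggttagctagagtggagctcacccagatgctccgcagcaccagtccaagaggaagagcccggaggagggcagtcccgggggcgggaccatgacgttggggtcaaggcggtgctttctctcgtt
The Ldha window shown held 5 matches, and another window of Ldha, at chr7:46846832-46847081, held 0. Pgk1 held 2 matches, and Slc2a1 and Egln3 held 1 each. Over either strand, 20 of the 35 genes held ACGTG in at least 1 of their windows (57.1%), against 18.5% of 27025 genes in the table. GCGTG was found in 24 of the 35 (68.6%), against 30.9% of all genes. Of the hypoxia targets 7 of 10 held ACGTG, and of the glycolytic enzymes 7 of 18. Of the 7 genes that rose in the tumours 4 held ACGTG, and of the 25 without a call 15 did. Tpi1, which also rose, had neither motif in this window. A match is a description of the letters and does not show a bound site.

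Median intensity lay between 90.92 and 99.48 over the 12 arrays, and replicates of a group correlated between 0.982 and 0.994 over genes. The 18S ribosomal RNA control probe sets read 1700 ± 504 in the tumours against 6381 ± 778 in wild type lung at 12 months (SD, n = 3 each). All 10 ciliated markers and all 10 cardiac muscle markers rose in the tumours, as did 7 of 9 squamous and basal markers. Of 10 endothelial markers 6 fell, and of 10 alveolar type 1 markers 3. In mutant lung 9 of 10 ciliated and 7 of 9 club cell markers rose and 3 of 10 endothelial markers fell. No marker list had all its genes near the floor; in wild type lung 2 squamous and basal markers had a mean intensity under 16. Xist, the RNA of the inactive X, was low in all 3 tumours and in wild type array 2 at 12 months, and high in wild type arrays 1 and 3. Among the 7-month arrays, Xist was low in wild type array 3 alone, and Y-linked genes were read on all 6. Wild type arrays 1 and 2 and mutant arrays 1, 2 and 3 thus read both. On these, Xist was at 4516 to 4959 and the summed Y-linked genes at 1092 to 1266, against 48.1 and 2130 on wild type array 3. RNA of both sexes may therefore be mixed on these arrays, which was not tested. With mixed lungs, the spread at 7 months would not be one between single animals. The part of tissue makeup and sex in the results below was not tested beyond the comparisons with the low-Xist array given with them. In samples of bulk tissue, fewer cells of a type and less RNA per cell cannot be told apart.

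Of the 36 measured genes, 7 rose in the tumours (19.4%) and 1 fell (2.78%), while 28 were not called. Over all genes tested 9.23% rose and 6.02% fell. A gene is called where limma's adjusted p is under 0.05, and differences are given as log2(intensity + 16) with their standard error. Of the 7, 4 were glycolytic enzymes: Hk1, Tpi1, Pgk1 and Ldha. The others were the glucose transporter Slc2a1, the prolyl hydroxylase Egln3 and the mitochondrial protein Higd1a. The gene that fell was Pfkfb3. Among all 36, the median log2 difference was 0.25, against 0.01 over all genes, and 27 differences were above 0.

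**Figure D1:**
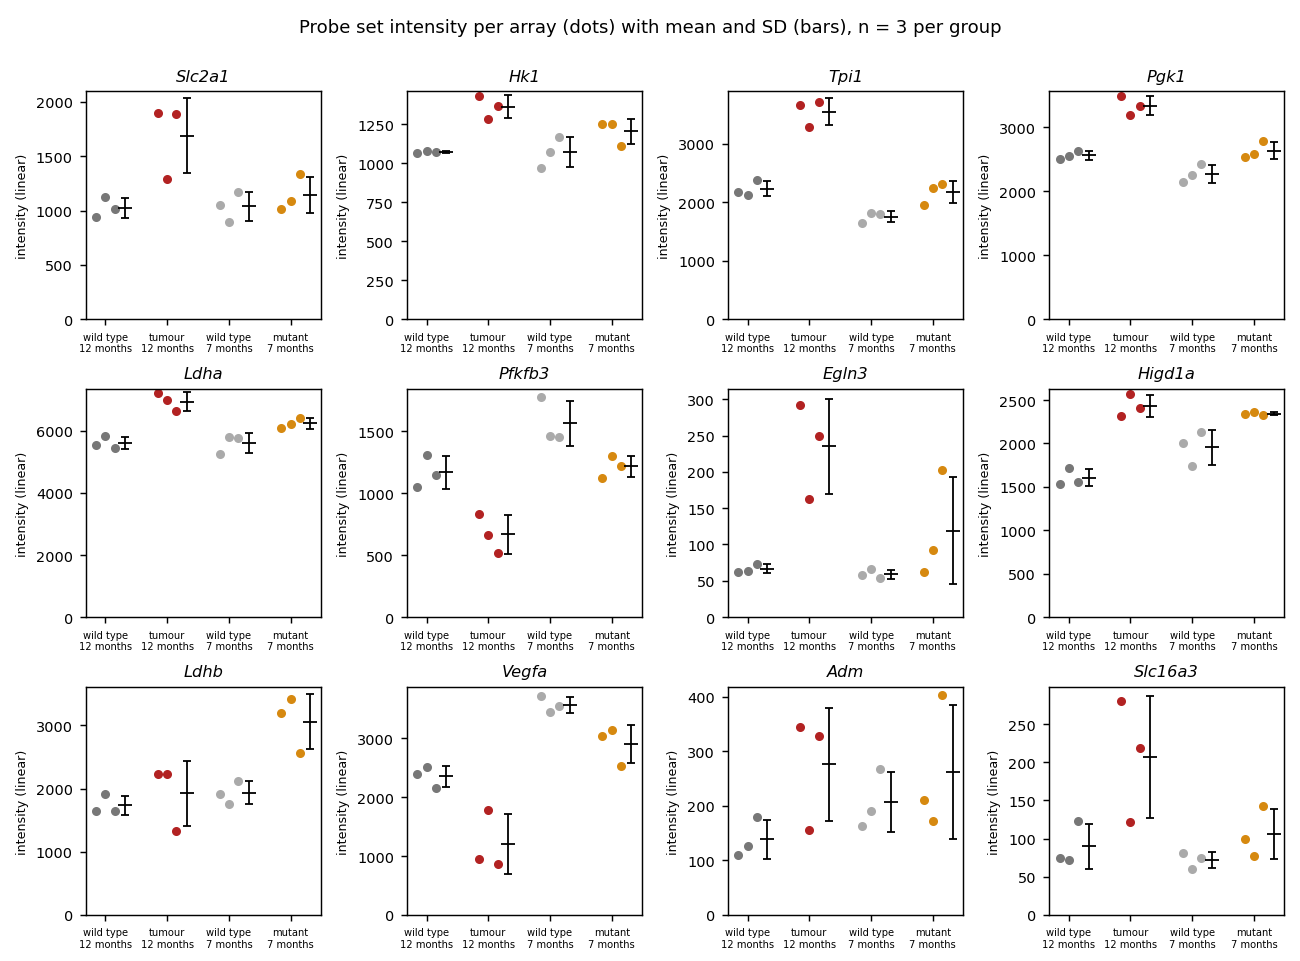
Probe set intensity (linear scale, y axis from 0) of 12 of the genes on each array, by group (x axis); dots are arrays, and the bars beside them are the mean and SD of 3 arrays. The 3 tumours sit above the 3 wild type lungs of 12 months for Slc2a1, Hk1, Tpi1, Pgk1, Ldha, Egln3 and Higd1a and below them for Pfkfb3 and Vegfa, and the mutant lungs sit above their wild type for Ldhb.

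Glucose enters through the transporters. Slc2a1, the widely expressed glucose transporter GLUT1, read 939, 1124 and 1015 in wild type lung and 1898, 1287 and 1885 in the tumours. Tumour 2 was the lowest of the tumours and still lay above all wild type arrays. Slc2a1 was 1.62-fold higher (log2 0.69 ± 0.17, adjusted p = 0.0447). Its 3 probe sets gave log2 differences from 0.51 to 0.69. None of the 3 was called by limma when p was adjusted over all probe sets (adjusted p from 0.0508 to 0.188). Slc2a3, a transporter of high affinity, read 799 in tumour 1 but 341 and 376 in the other tumours, within or below the wild type values of 397, 382 and 356. Its difference of 0.30 was not called (adjusted p = 0.572). Tumour 1 also had the most signal of 8 neutrophil markers, of which 1, Ltf, rose and none fell in the tumours. Their sum was 31630, 16282 and 19956 in tumours 1, 2 and 3 and 5361 to 11198 in wild type lung. Ltf alone read 9941, 9363 and 9909 in the tumours and 231, 2177 and 1805 in wild type lung. The part of neutrophils in the Slc2a3 values was not tested.

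Hexokinase traps glucose in the cell. Hk1 read 1069, 1079 and 1071 in wild type lung and 1434, 1287 and 1368 in the tumours, 1.26-fold higher (0.34 ± 0.08, adjusted p = 0.0361). The wild type values were close together, with a coefficient of variation of 0.52%, and the groups did not overlap. Hk2, the inducible form, was at 906 ± 101 against 721 ± 165 and was not called (0.34 ± 0.19, adjusted p = 0.275).

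The phosphofructokinase step is the committed step of the pathway, and its genes did not move as 1. Of the enzyme's subunits, the muscle form Pfkm lay above wild type on every tumour array without a call (0.26 ± 0.09, adjusted p = 0.0962). The liver form Pfkl differed by 0.42 (adjusted p = 0.179) and the platelet form Pfkp by -0.05 (adjusted p = 0.762), each with overlapping groups. Other probe sets of Pfkl gave -0.04 and 0.01. Pfkfb3 and Pfkfb4 set the level of fructose 2,6-bisphosphate, the activator of phosphofructokinase. Pfkfb3 read 1045, 1310 and 1145 in wild type lung and 827, 660 and 513 in the tumours. It was 1.76-fold lower (-0.81 ± 0.19, adjusted p = 0.0356), with every tumour below every wild type array. Another probe set of Pfkfb3 gave 0.13, so the fall rests on 1 probe set. Pfkfb4 lay below wild type on all 3 tumour arrays, at 495, 521 and 275 against 582, 615 and 744 (-0.62 ± 0.25, adjusted p = 0.158).

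The middle of the pathway held the clearest change. Tpi1, triose phosphate isomerase, read 2179, 2131 and 2373 in wild type lung and 3655, 3280 and 3716 in the tumours. It was 1.59-fold higher (0.67 ± 0.09, adjusted p = 0.01), and its 3 probe sets all rose, by 0.67 to 0.88. Pgk1, phosphoglycerate kinase, read 2501, 2555 and 2633 against 3495, 3190 and 3336, again without overlap. It was 1.30-fold higher (0.38 ± 0.08, adjusted p = 0.026). Aldoa, the main aldolase of most tissues, differed by 0.16 (adjusted p = 0.264), Gapdh by 0.03 (adjusted p = 0.84) and Pgam1, phosphoglycerate mutase, by -0.10 (adjusted p = 0.501). Aldoc, the brain-type aldolase, was not called on the chosen probe set (-0.29, adjusted p = 0.309), while another one fell by 1.13 on the log2 scale.

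Among the last steps, Eno2, the neuronal enolase, was at 83.0, 70.2 and 164 in the tumours and 38.1, 38.3 and 57.4 in wild type lung. The groups did not overlap, but the tumours spread widely and the difference was not called (0.95 ± 0.29, adjusted p = 0.0828). Ldha, the lactate dehydrogenase subunit that favours lactate formation, read 5534, 5840 and 5466 in wild type lung and 7221, 6992 and 6631 in the tumours. Its rise was small, 1.24-fold (0.31 ± 0.08, adjusted p = 0.0477). Ldhb, the heart-type subunit, read 2223, 2223 and 1334 in the tumours and straddled the wild type values of 1638, 1910 and 1647 (0.12, adjusted p = 0.76). Over the 16 measured enzymes and regulators 4 rose (25.0%) and 1 fell (6.25%), against 9.23% and 6.02% of all genes. The median difference was 0.21.

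None of the 3 genes of pyruvate fate and lactate transport was called. Slc16a3, the lactate exporter MCT4, read 281, 122 and 219 in the tumours and 74.1, 71.7 and 123 in wild type lung. Tumour 2 fell inside the wild type range, and the difference of 1.04 ± 0.32 had an adjusted p of 0.0811. Slc16a1, the transporter MCT1, differed by -0.06 (adjusted p = 0.848). Pdk1, a kinase that shuts pyruvate out of mitochondria, differed by 0.28 (adjusted p = 0.379), with wild type array 1 at 695 above all the tumours.

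The alpha subunits of HIF are controlled mainly as proteins, and their RNA moved little. Hif1a was at 4350.5 ± 103 in the tumours and 4459 ± 182 in wild type lung (-0.03, adjusted p = 0.801). Epas1, the subunit HIF-2alpha, read 9786, 10714 and 9786 in the tumours and 10872, 11482 and 10830 in wild type lung. The tumours lay below wild type on every array, by 0.13 on the log2 scale, without a call (adjusted p = 0.323). Egln1, the main oxygen sensor of this family, differed by 0.11 (adjusted p = 0.564).

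Egln3, a prolyl hydroxylase that is itself induced through HIF, gave the largest difference of the 36 genes. It read 61.6, 64.04 and 73.7 in wild type lung and 292, 163 and 250 in the tumours, 2.98-fold higher (1.57 ± 0.21, adjusted p = 0.00954). Both its probe sets rose, by 1.57 and 1.71. Tumour 2 was again the lowest of the tumours.

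Of 11 measured hypoxia targets 1 rose (9.09%), near the share over all genes, and none fell by limma's adjusted p; at an unadjusted p under 0.05, 3 were higher and 1 lower, and 17.1% and 13.7% of all genes were. Higd1a, a hypoxia-induced protein of the inner mitochondrial membrane, read 1538, 1715 and 1561 in wild type lung and 2313, 2571 and 2409 in the tumours. It was 1.51-fold higher (0.60 ± 0.09, adjusted p = 0.0115), and tumour 2 was the highest. The other two probe sets of Higd1a were not called, with the smallest difference at 0.20.

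Vegfa, the vascular endothelial growth factor, ran the other way. It read 2398, 2510 and 2156 in wild type lung and 942, 1788 and 866 in the tumours. Every tumour was below every wild type array, and the difference of -1.04 ± 0.27 just missed the call (adjusted p = 0.0528). Another probe set of Vegfa gave a smaller difference, -0.44, and was not called. Tumour 2, the lowest tumour for Slc2a1, Egln3 and Slc16a3, was the highest for Vegfa. Without tumour 2 Vegfa was called lower (-1.36, adjusted p = 0.00433). Calls over all genes then went from 1679 higher and 1095 lower to 1900 and 1426. The summed intensity of 10 alveolar type 1 markers was 23656 to 38197 in the tumours and 40906 to 45387 in wild type lung, and that of 10 endothelial markers 9055 to 13984 against 18979 to 21436. Tumour 2 had the highest sum of the tumours in both lists and in 9 alveolar type 2 markers, at 70989 against 48991 and 35491 in tumours 1 and 3 and 64668 to 66290 in wild type lung. The part of these cells in the Vegfa values was not tested.

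Adm and Ddit4 split the tumours. Adm, the vasodilator peptide adrenomedullin, read 344, 156 and 328 in the tumours and 110, 126 and 179 in wild type lung (0.87 ± 0.32, adjusted p = 0.127). Ddit4, an inhibitor of mTORC1, read 2925, 1417 and 2415 against 1142, 1224 and 1783 (0.66 ± 0.30, adjusted p = 0.198). In both genes, tumours 1 and 3 were above all wild type arrays and tumour 2 was among them. P4ha2, a collagen prolyl hydroxylase, lay above wild type in every tumour, at 2248, 1984 and 2437 against 1422, 1924 and 1407 (0.49 ± 0.15, adjusted p = 0.0801). Its companion P4ha1 differed by 0.24 (adjusted p = 0.338), Ndrg1 by 0.41 (adjusted p = 0.208), the mitophagy receptor Bnip3 by 0.17 (adjusted p = 0.433) and Ankrd37 by 0.18 (adjusted p = 0.699). The carbonic anhydrases stayed near their wild type levels: Car9 was at 68.6 ± 15.02 in the tumours and 63.8 ± 10.3 in wild type lung (0.08, adjusted p = 0.783), and Car12 at 56.7 ± 3.0 and 53.5 ± 4.4 (0.07, adjusted p = 0.664).

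Glycolytic enzymes and hypoxia targets therefore had like medians in the tumours, 0.21 and 0.24. Called higher were 4 of 16 enzymes and 1 of 11 targets, against 9.23% of all genes. The difference between the 2 lists was not tested. The median coefficient of variation was 18.2% for targets and 6.42% for enzymes in wild type lung at 12 months, and 16.7% and 6.40% in the tumours. At 7 months it was 10.2% for targets and 9.38% for enzymes in wild type lung and 11.7% and 6.93% in mutant lung. All 3 tumours lay above all 3 wild type lungs for 10 of the 36 genes (27.8%) and below them for 4 (11.1%), against 20.5% and 17.0% of all genes.

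How many genes were called depended on the processing. Scaling each array to a common median brought the median difference of all genes from 0.01 to -0.09 and left 3 genes higher and 2 lower, with the calls of Slc2a1, Hk1, Pgk1 and Ldha lost and Vegfa gained. Over all genes the split turned from 1679 higher and 1095 lower to 1328 higher and 1787 lower, and quantile normalization gave 1458 and 1347. With any 1 array of 12 months left out, between 3 and 6 of the 8 calls were kept, the fewest without wild type array 1, wild type array 2, wild type array 3 or tumour 3. Tpi1 and Egln3 kept their call in 17 of 18 alternatives, Higd1a in 16, Pgk1 in 11, Pfkfb3 in 10, Hk1 in 8 and Slc2a1 and Ldha in 7 each. Against the low-Xist wild type array alone, none of the 8 was called, and 1 gene was called among all; the 8 differences kept their direction, and Tpi1 was at 0.73 and Egln3 at 1.61. With the spread taken from all 15 arrays, 5 of the 8 calls were kept in that comparison.

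**Figure D2:**
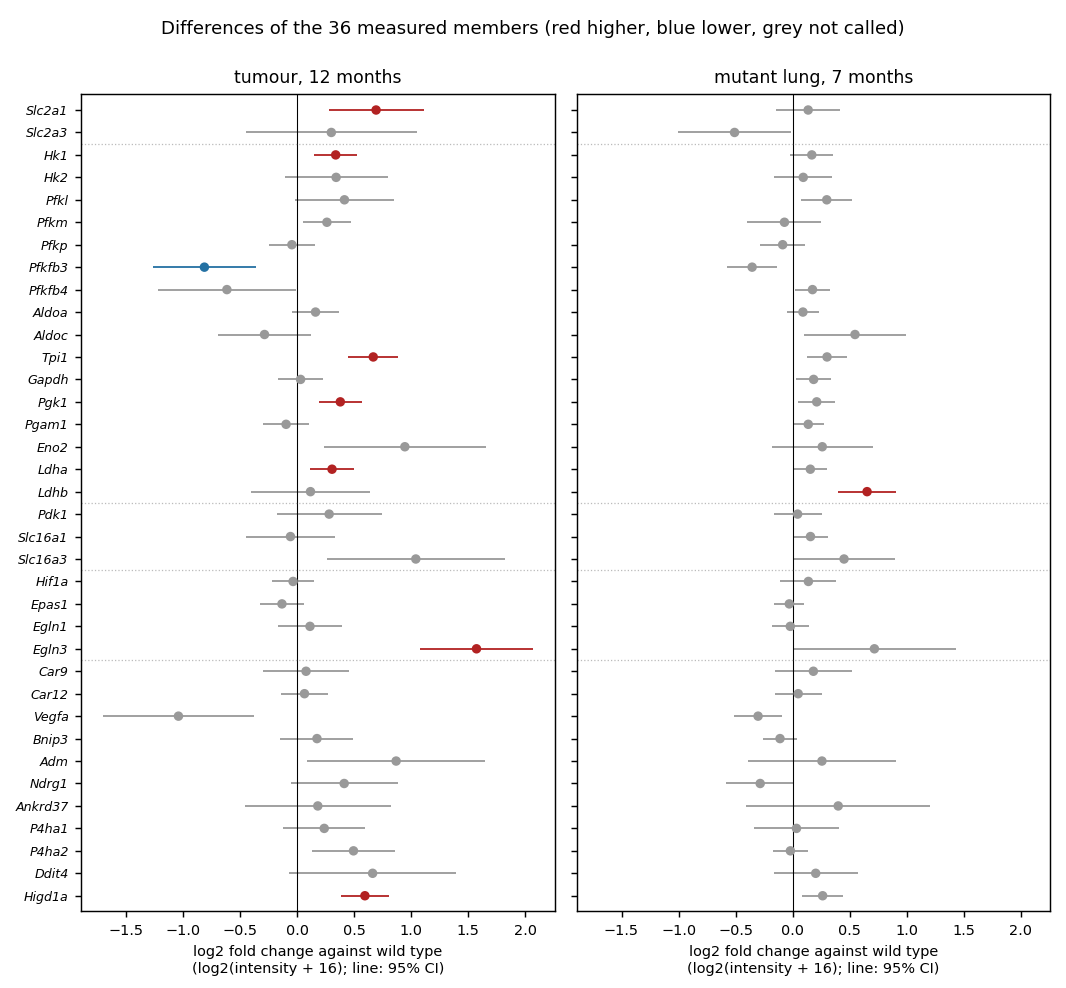
Log2 fold change of each of the 36 measured genes (rows, grouped by role with dotted lines between) with its 95% confidence interval, for tumours against wild type at 12 months (left) and mutant lung against wild type at 7 months (right). In the tumours Egln3 lies farthest to the right at 1.57 and Vegfa farthest to the left at -1.04; in mutant lung only Ldhb is called, at 0.65.

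At 7 months 1 of the 36 genes was called higher in mutant lung (2.78%) and none lower, against 6.42% and 1.40% of all genes. At an unadjusted p under 0.05, 13 were higher and 3 lower, and 14.1% and 9.21% of all genes were. The called gene was Ldhb, whose subunits form the lactate dehydrogenase of heart and other oxidative tissues. It read 1908, 1761 and 2127 in wild type lung and 3198, 3413 and 2569 in mutant lung, with no overlap. Ldhb was 1.57-fold higher (0.65 ± 0.11, adjusted p = 0.00921). All 4 of its probe sets were called, between 0.63 and 0.68, and the call was kept in all 18 alternatives.

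No other glycolytic enzyme was called, and 13 of the 16 differences were above 0. The largest after Ldhb was that of Aldoc, which read 140, 254 and 189 in wild type lung and 228, 302 and 330 in mutant lung (0.55 ± 0.20, adjusted p = 0.136), with 1 mutant lung inside the wild type range. All 3 mutant lungs lay above all 3 wild type lungs for 9 of the 16 enzymes (56.2%) and for 11 of the 36 genes (30.6%), against 15.2% of all genes. They lay below for 3 of the 36 (8.33%), against 10.9%. The median difference of the enzymes was 0.17, and that of all genes 0.01. Scaling each array to a common median moved the median of all genes to -0.08, and the separations were not counted on that scale. Wild type array 1 was the lowest of its group for 14 of the 16 enzymes, so their separations are not independent of each other. Tpi1 read 1645, 1821 and 1802 in wild type lung and 1961, 2248 and 2306 in mutant lung, and missed the call narrowly (0.30 ± 0.08, adjusted p = 0.0529). Pgk1 differed by 0.21 (adjusted p = 0.112), Gapdh by 0.18 (adjusted p = 0.146), Ldha by 0.16 (adjusted p = 0.195), Pgam1 by 0.14 (adjusted p = 0.213) and Aldoa by 0.09 (adjusted p = 0.432), each with the groups apart. Pfkl and Pfkfb4 lay above as well, at 0.30 (adjusted p = 0.107) and 0.17 (adjusted p = 0.162). Other probe sets of Pfkl gave 0.05 and -0.004. Pfkfb3 read 1774, 1458 and 1455 in wild type lung and 1126, 1301 and 1218 in mutant lung, below it on every array (-0.36 ± 0.09, adjusted p = 0.059).

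No transporter, HIF gene or hypoxia target was called in mutant lung. By limma's unadjusted p under 0.05, 1 of 11 targets was higher and 1 lower, and 14.1% and 9.21% of all genes were. Higd1a lay at 2342, 2359 and 2326 against 2002, 1736 and 2129 (0.26 ± 0.08, adjusted p = 0.0867). Vegfa lay at 3049, 3139 and 2533 against 3723, 3455 and 3550, below wild type on every array (-0.30 ± 0.09, adjusted p = 0.0924). The summed endothelial markers were 21064 to 25387 in mutant lung and 29001 to 29688 in wild type, and the alveolar type 1 markers 45228 to 50441 against 53482 to 55493. Their part in the Vegfa values was not tested.

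Mutant lung array 3 was the highest of its group for 22 of the 36 genes. Egln3 read 202 there, against 62.6 and 92.9 in the other mutant lungs and 58.1, 65.6 and 53.4 in wild type lung, and the difference of the groups was not called (0.72 ± 0.31, adjusted p = 0.214). Adm read 402, against 211 and 171, Ankrd37 404 against 224 and 199, and Slc16a3 142 against 99.3 and 76.9. Slc2a1 was also highest there, at 1334 against 1011 and 1089. Slc2a3 was highest on array 3 too, at 463 against 267 and 273. Its difference between the groups was below 0 and not called (-0.51 ± 0.22, adjusted p = 0.206). Without array 3, Slc2a3 and Ndrg1 were called lower. The 8 neutrophil markers summed to 20124 on array 3, against 6231 and 8905 on the other mutant arrays and 15615, 7353 and 3792 in wild type lung, where Slc2a3 read 571, 447 and 400. Of these markers only Ltf was called, at 2600, 5817 and 6764 in mutant lungs 1, 2 and 3 against 90.3, 436 and 398 in wild type lung. The other 7 differences were below 0. The part of neutrophil RNA in the values of array 3 was not tested.

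**Figure D3:**
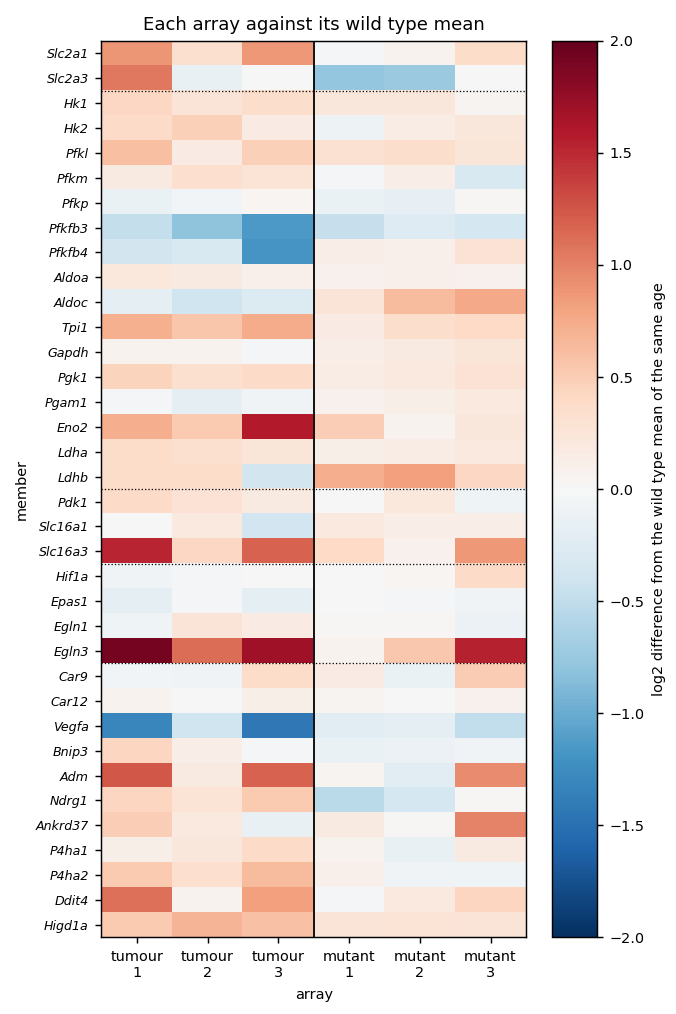
Colour map of the log2 difference of each tumour and mutant lung array (columns) from the mean of the 3 wild type lungs of its age, for the 36 genes (rows); red is higher, blue lower, and the colour scale runs from -2 to 2. Tumour 2 is paler than tumours 1 and 3 in the rows of Slc2a1, Slc16a3, Egln3, Adm and Vegfa, and mutant lung 3 is redder than mutant lungs 1 and 2 in those of Egln3, Adm, Ankrd37 and Slc16a3.

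Some of these genes spread widely within groups. Relative to wild type of the same age, Egln3 was at 1.91, 1.12 and 1.69 in tumours 1, 2 and 3 and at 0.07, 0.54 and 1.54 in mutant lungs 1, 2 and 3, so mutant lung 3 lay above tumour 2. Adm was at 1.25, 0.18 and 1.18 in the tumours and at 0.06, -0.22 and 0.94 in the mutant lungs. Slc16a3 was at 1.52, 0.42 and 1.19 and at 0.40, 0.09 and 0.86. Some enzymes also spread, such as Eno2 at 0.72, 0.52 and 1.59 and Ldhb at 0.36, 0.36 and -0.37 in the tumours.

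The effect in tumours at 12 months was set against that in mutant lung at 7 months in 1 model, with each compared to the wild type lungs of the same month. Age, the kind of tissue and the set of arrays changed at once and cannot be told apart. None of the 36 genes was called in either direction by limma, against 1.75% of all genes higher and 1.41% lower. At an unadjusted p under 0.05, 5 were higher in the tumour effect and 6 lower, and 9.33% and 9.50% of all genes were. The difference was 0.37 ± 0.11 for Tpi1 (adjusted p = 0.101), 0.56 ± 0.21 for Slc2a1 (adjusted p = 0.179), 0.86 ± 0.41 for Egln3 (adjusted p = 0.291) and -0.54 ± 0.24 for Ldhb (adjusted p = 0.258). The rise of Ldhb in mutant lung and its value in the tumours were therefore not shown to differ. Aldoc gave the lowest value, -0.83 ± 0.28 (adjusted p = 0.124). Without tumour 2, the effect of Slc2a1 (0.74, adjusted p = 0.0198) and of Tpi1 (0.42, adjusted p = 0.036) was called higher, and that of Vegfa lower (-1.06, adjusted p = 0.00153). Pfkfb4 and P4ha2 were called as well, and calls over all genes went from 319 higher and 257 lower to 857 and 973.

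The rest of glycolysis was read from a list of 25 further genes, of which 21 were measured. In the tumours 9 of them rose (42.9%) and 1 fell (4.76%), against 9.23% and 6.02% of all genes. The 3 with the smallest adjusted p were Pgam2, Tigar and Eno4. Pgam2, the muscle phosphoglycerate mutase, read 392, 392 and 467 in the tumours and 107, 168 and 106 in wild type lung, 3.08-fold higher (1.62 ± 0.18, adjusted p = 0.00669). Tigar, a phosphatase that lowers fructose 2,6-bisphosphate, read 848, 752 and 780 against 399, 427 and 470 (0.85 ± 0.10, adjusted p = 0.00669). Eno4, an enolase of sperm, read 839, 575 and 855 against 284, 344 and 306 (1.22 ± 0.17, adjusted p = 0.0107). The gene that fell was the transporter Slc2a8 (-0.44 ± 0.10, adjusted p = 0.039).

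Several of the further genes are forms of muscle or of motile cells, not the forms named in the main set. Slc2a4, the insulin-responsive transporter of muscle and fat, read 223, 211 and 276 in the tumours and 121, 124 and 137 in wild type lung (0.81 ± 0.12, adjusted p = 0.0116). The summed intensity of 10 cardiac muscle markers was 34575 to 39511 in the tumours and 13463 to 19585 in wild type lung. That of 10 ciliated markers was 10128 to 15739 against 4154 to 5624. The part of muscle and ciliated cells in the values of Pgam2, Slc2a4 and Eno4 was not tested.

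**Figure D4:**
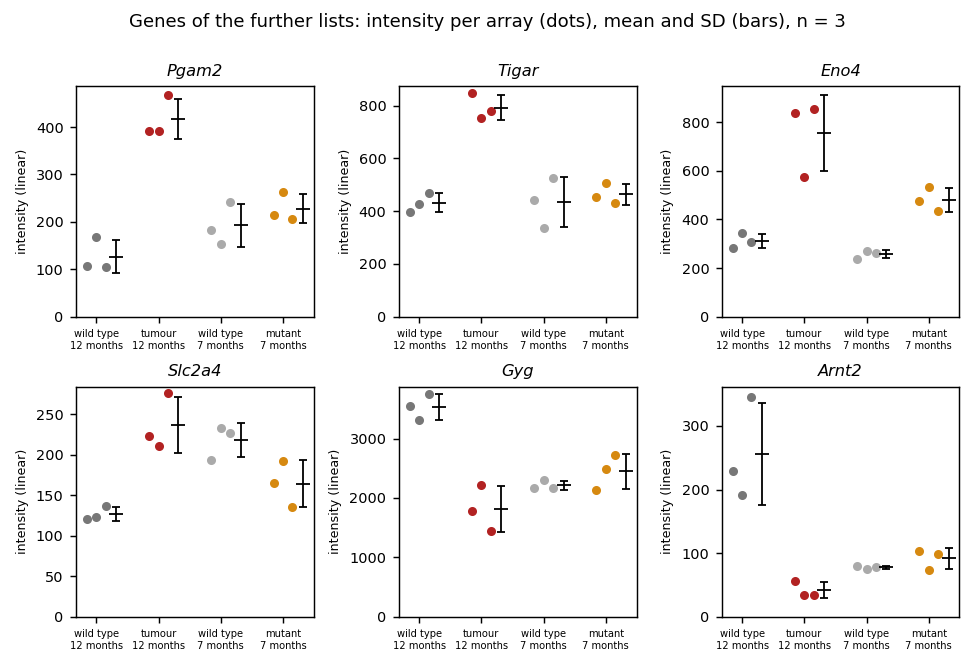
Probe set intensity (linear scale, y axis from 0) on each array of 6 genes outside the main set, by group (x axis); dots are arrays and bars the mean and SD of 3 arrays. The tumours lie above wild type of 12 months for Pgam2, Tigar, Eno4 and Slc2a4 and below it for Gyg and Arnt2, and the mutant lungs lie above wild type of 7 months for Eno4.

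In mutant lung 5 of the 21 rose (23.8%) and none fell, against 6.42% and 1.40% of all genes. At an unadjusted p under 0.05 by limma, 6 were higher and 2 lower, and 14.1% and 9.21% of all genes were. Slc2a12, a transporter of the GLUT family, read 327, 362 and 338 against 210, 200 and 184 in wild type lung (0.75 ± 0.07, adjusted p = 0.000515). Eno4 read 474, 535 and 436 against 239, 270 and 262 (0.86 ± 0.09, adjusted p = 0.000548). Ldhd, the D-lactate dehydrogenase, read 115, 123 and 108 against 73.3, 79.2 and 69.8 (0.54 ± 0.07, adjusted p = 0.00165). The summed ciliated markers were 5703 to 6892 in mutant lung and 2672 to 2779 in wild type, and their part in these values was not tested. Slc2a12 depended on the probe set: without those whose names end in _x_at or _s_at it differed by 0.36 (adjusted p = 0.171).

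Of 19 genes of pyruvate and mitochondrial entry none was called in the tumours by limma, and 6 were higher and none lower at an unadjusted p under 0.05 (17.1% of all genes were higher and 13.7% lower at that threshold). In mutant lung 2 rose (10.5%), against 6.42% of all genes. They were Me1, the cytosolic malic enzyme (0.65 ± 0.11, adjusted p = 0.00982), and Pdk3, another pyruvate dehydrogenase kinase (0.32 ± 0.07, adjusted p = 0.0359). Of 9 pentose phosphate genes none was called in the tumours, where 1 was lower at an unadjusted p under 0.05 by limma. In mutant lung 1 rose (11.1%, against 6.42% of all genes), Pgd, which makes NADPH (0.42 ± 0.08, adjusted p = 0.0137). Of 7 gluconeogenic genes 1 fell in the tumours (14.3%, against 6.02% of all genes), and no other was called. It was Fbp1, fructose bisphosphatase, at 72.7, 254 and 60.6 against 1113, 821 and 386 (-2.57 ± 0.58, adjusted p = 0.0352). Its call was kept in 9 of 18 alternatives. Fbp1 was erratic at 7 months, with 32.4, 1104 and 697 in wild type lung alone.

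Of 14 glycogen genes 2 rose in the tumours (14.3%) and 1 fell (7.14%), near the 9.23% and 6.02% of all genes. Gys1, the glycogen synthase of muscle and most tissues, read 386, 371 and 387 against 203, 222 and 217 (0.79 ± 0.08, adjusted p = 0.0056), and Pgm2 rose too (0.79 ± 0.16, adjusted p = 0.0255). Gyg, glycogenin, the primer of glycogen, read 1777, 2211 and 1449 in the tumours and 3540, 3316 and 3756 in wild type lung, 1.97-fold lower (-0.98 ± 0.16, adjusted p = 0.0149). In mutant lung Pygb, a glycogen phosphorylase, rose (0.45 ± 0.11, adjusted p = 0.0401) and Gbe1, the branching enzyme, fell (-0.34 ± 0.09, adjusted p = 0.0488). Each was 7.14% of the list, against 6.42% higher and 1.40% lower of all genes.

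Of 14 further genes of the HIF pathway, 1 fell in the tumours (7.14%), near the 6.02% of all genes. None rose, and none was called in mutant lung. Arnt2, a partner of the alpha subunits, read 56.9, 33.9 and 34.8 in the tumours and 230, 191 and 346 in wild type lung, 4.64-fold lower (-2.21 ± 0.25, adjusted p = 0.00669). At 7 months it read 103, 73.3 and 99.3 in mutant and 79.3, 75.6 and 78.1 in wild type lung. The levels of the 2 ages were not compared by a test. The tumour effect minus the mutant effect was -2.41 (adjusted p = 0.00152 by limma). The summed intensity of 10 macrophage markers was 41467, 41224 and 48635 in wild type lung of 12 months, 22616 to 31594 in the tumours and 18810 to 30343 in wild type lung of 7 months. The part of macrophages in the values of Arnt2 and Gyg was not tested.

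Further hypoxia targets were read from a list of 43. Of 38 measured, 6 rose in the tumours (15.8%) and 7 fell (18.4%), against 9.23% and 6.02% of all genes, with a median difference of 0.02. The risers with the smallest adjusted p were the exonuclease Isg20 (1.38 ± 0.18, adjusted p = 0.00938), also an interferon-induced gene, the matrix protein Tgfbi (0.62 ± 0.09, adjusted p = 0.0108) and the ER retention receptor Kdelr3 (0.91 ± 0.14, adjusted p = 0.0133). Those that fell were led by Rora, a nuclear receptor (-0.55 ± 0.09, adjusted p = 0.0142), Plin2, a coat protein of lipid droplets (-0.87 ± 0.14, adjusted p = 0.0142), and Edn1, the vasoconstrictor endothelin (-1.14 ± 0.19, adjusted p = 0.0151). Of 10 macrophage markers 4 fell in the tumours, and their part in the Plin2 values was not tested. In mutant lung 2 rose and 2 fell (5.26% each), against 6.42% and 1.40% of all genes. Isg20 (0.55 ± 0.10, adjusted p = 0.0135) and the transferrin receptor Tfrc (0.50 ± 0.09, adjusted p = 0.00975) were higher, and Rora (-0.39 ± 0.07, adjusted p = 0.015) and Angptl4, an inhibitor of lipoprotein lipase (-0.42 ± 0.08, adjusted p = 0.0157), were lower.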

How the data were processed

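RNA of mouse lung and lung tumour was measured on 15 single-colour Affymetrix arrays, 3 per group. Per the labels' protocols, biotinylated cRNA was made with the 3' IVT Express method, which starts from the poly(A) tail. The authors deposited linear intensity values from 0.48 to 17030 for 45101 probe sets; the steps from scanned signals to these values were not stated in the labels used here. Values under 16 made up 17.1% to 21.1% of each array. The labels do not state that replicates are separate animals, though 5 of the 6 titles at 12 months carry different numbers whose meaning is not given, so p-values measure the spread between these samples, and the number of arrays limits the precision.

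The platform annotation gave 34958 probe sets 1 symbol and 932 several, and 9211 have no name here. Gene numbers were matched to RefSeq of GRCm38.p6 for 34754, and 0 symbols changed. Each of 18194 genes was read by its brightest probe set over all arrays, and 9012 genes had several.

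Values were transformed as log2(intensity + 16), a scale on which fold changes of dim genes are understated, and compared with limma (version 3.58.1, R 4.3.3; lmFit and eBayes, two-sided), with Benjamini-Hochberg adjustment over all 18194 genes and calls at 0.05. The 12-month groups were fitted on 6 arrays and the 7-month groups on 9, of which 3 belong to another group, left out of the report, and add to the error estimate and to the probe set means; the 2 planned comparisons with that group are not reported. The difference of effects used all 15 arrays. The fits were checked on simulated data with 200 genes changed. That is fewer than were called in the data (1679 higher and 1095 lower in the tumours). Because the adjustment depends on how many genes change, recovery in these data can differ. The tumour comparison recovered 17 of 67 genes changed 1.5-fold and 42 of 67 changed 2-fold. The mutant comparison recovered 37 and 58 of 67. Small changes can therefore go without a call. Genes named outside the main set were up to 3 called genes of each further list in each direction and comparison, by smallest adjusted p. The genes, lists and tests were chosen with earlier results of these data known. Same-numbered arrays at 7 months did not deviate together (r = -0.13, 0.02 and -0.08), so numbers were not taken as pairs. Alternatives were other pseudocounts, scalings, probe set rules, filters, models and left-out arrays.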

Additional observations from a re-analysis of the deposited data

Results flagged for a closer look

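The effect in tumours at 12 months and that in mutant lung at 7 months were set apart, by the limma contrast over all 15 arrays, for 6 genes outside the main set of 39. The difference on the log2 scale was 1.38 for Pgam2 (adjusted p = 0.0116), which read 417 ± 43.2 in tumours and 228 ± 30.1 in mutant lung (SD, n = 3 each). It was 1.20 for Slc2a4 (adjusted p = 0.00494), which was 0.81 higher in tumours and -0.39 in mutant lung, where it was not called (adjusted p = 0.0989). For Ldhal6b the contrast gave 0.68 (adjusted p = 0.0109), but it read at most 2.33 on every 7-month array, so no effect in mutant lung could be measured and a difference of effects is not shown. At 12 months its mean was 25.0 ± 5.3 over the tumours and 10.1 ± 1.5 over the wild type lungs. The tumour effect was the lower one for Gyg, by -1.12 (adjusted p = 0.00811), for Arnt2, by -2.41 (adjusted p = 0.00152), and for Plin2, by -0.88 (adjusted p = 0.0364). Plin2 read 6471 ± 781 in wild type lung at 12 months and 3276 ± 408 at 7 months, and Arnt2 256 ± 80.5 and 77.7 ± 1.8. The summed macrophage markers were 41224 to 48635 at 12 months and 18810 to 30343 at 7 months in wild type lung. Their part in the 3 differences was not tested. Of these 6 calls, Slc2a4 was kept in all 22 alternatives, Pgam2, Gyg and Arnt2 in 21 of 22, Ldhal6b in 20 of 21 and Plin2 in 13 of 22. Age, tissue and array set cannot be told apart in this contrast.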

How the results depend on the processing

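No called gene changed direction under any alternative. In the tumours the count of 7 genes higher and 1 lower became 4 and 0 with a pseudocount of 1, 3 and 2 with median centring, 4 higher with the mean of all probe sets, 11 and 3 with all 15 arrays in 1 fit, and 0 and 0 against the low-Xist wild type array alone, or 4 and 2 with the spread over all 15 arrays, an alternative chosen after seeing the data. It was 2 lower with a pseudocount of 64, without the dimmer genes, with an intensity trend and robust fitting, and with array weights. Leaving out 1 array gave 3 to 9 higher and 0 to 1 lower. In mutant lung the count of 1 higher and 0 lower became 2 and 1 with a pseudocount of 64, 3 and 1 without the dimmer genes, 4 and 2 with the trend and robust fitting, 2 lower with median centring, and 2 higher with quantile normalization, the mean of all probe sets or all 15 arrays in 1 fit. Leaving out 1 array gave 1 to 3 higher and 0 to 2 lower. For the difference of effects, 0 and 0 became 1 lower with array weights or the mean of all probe sets, and left-out arrays gave 0 to 3 higher and 0 to 2 lower. With the replicate block, mutant lung kept 1 higher and 0 lower, and calls over all genes went from 1168 higher and 254 lower to 992 and 157. Over all genes the other settings moved the tumour count of 1679 higher to between 622 and 2735, the fewest calls with more than 1 array per group coming without wild type array 3 (622 higher, 220 lower). In mutant lung the split of 1168 higher and 254 lower became 916 and 1020 with median centring, 984 and 439 with quantile normalization, and 730 and 37 with only the 2 groups compared. The cause of these changes was not tested. Genes near the floor of the intensities, such as Eno2, Car9 and Car12, are limited by signal over background.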
